A study of Mus musculus with 9 samples.

Results

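The proteasome genes described here are the genes of adipose tissue macrophages whose symbol starts with Psma, Psmb, Psmc, Psmd, Psme, Psmf or Psmg followed by a number, with the 3 interferon-inducible catalytic subunits Psmb8, Psmb9 and Psmb10 left out. They came to 46 of the 14905 genes in the deposited table. Of the 46, 44 were classed as encoding proteasome proteins: 15 of the core, 17 of the regulatory cap, 4 activators, 1 inhibitor and 7 assembly factors. The other 2 were counted apart. Psmc3ip encodes a protein of meiotic recombination and matches by symbol alone, and Psme2b is a near-copy of Psme2. The genes were chosen by name and not by their values, though with earlier results of these data known.

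RNA was sequenced from 9 mouse libraries of F4/80-positive, CD11b-positive cells sorted from visceral adipose tissue, 5 from Nucb2-/- mice (KO) and 4 from wild-type mice (WT). Nucb2 encodes nucleobindin-2, which binds calcium. All 9 were on the C57BL/6 background. The title of the deposited table carries the letters HFD, which the labels do not spell out; the series title speaks of obesity. The sources used here do not give the design of the allele, the age or sex of the mice, or whether each library came from its own mouse, so the spread between libraries may be partly technical. Nucb2 itself was at 1500 ± 219 normalized counts in KO libraries (SD, n = 5) and at 4313 ± 791 in WT libraries (SD, n = 4), so its transcript was lower but present in KO. The sort antigens Adgre1 (F4/80) and Itgam (CD11b) were high in every library. Adgre1 had 85568 to 118970 normalized counts and Itgam 19952 to 25401. A normalized count is a read count divided by 1 factor per library, and no value is under 1. The step between values gave the depth: KO replicates 1 to 4 and WT replicates 1 and 2 were deeper, with 74937721 to 85200100 reads, while KO replicate 5 and WT replicates 3 and 4 were shallower, with 51148956 to 55004978.

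The proteasome degrades proteins tagged with ubiquitin. Its barrel-shaped core is built of stacked rings of alpha subunits (Psma genes), which gate the entrance, and beta subunits (Psmb genes), of which Psmb5, Psmb6 and Psmb7 cut peptide bonds. The cap (Psmc and most Psmd genes) binds tagged proteins, removes ubiquitin and unfolds and feeds the chain inward by a ring of ATPases. Other activators open the gate without the cap: Psme1 and Psme2 form the interferon-inducible activator PA28 alpha-beta, known for its part in making peptides for MHC class I, Psme3 forms nuclear PA28 gamma, and Psme4 encodes PA200. Macrophages use the proteasome both for turnover and for antigen presentation.

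The promoters of 4 genes, on which the results below turn, are given first. Psma6 and Psmb6 are the core genes, and Psme1 the activator gene, whose KO and WT ranges did not overlap; Psme2 encodes the partner of Psme1. Each sequence is RefSeq's (GRCm38.p6, the assembly that mm10 names), from 250 bases before to 50 after a listed transcription start, 5′ to 3′ on the gene's strand. Capitals mark matches, on either strand, to CCGGAAG (an ETS factor motif), TGACNNNGC (the antioxidant response element core, which Nfe2l1 and Nfe2l2 bind) or the interferon-stimulated response element (GAAA, any 2 bases, GAAA). For Psma6 the second of its listed starts is shown, at chr12:55398575-55398874, plus strand. Psmb6 is shown at chr11:70525107-70525406, plus strand. Psme1 is shown at chr14:55578244-55578543, plus strand, and Psme2 at chr14:55591052-55591351, minus strand.
Psma6: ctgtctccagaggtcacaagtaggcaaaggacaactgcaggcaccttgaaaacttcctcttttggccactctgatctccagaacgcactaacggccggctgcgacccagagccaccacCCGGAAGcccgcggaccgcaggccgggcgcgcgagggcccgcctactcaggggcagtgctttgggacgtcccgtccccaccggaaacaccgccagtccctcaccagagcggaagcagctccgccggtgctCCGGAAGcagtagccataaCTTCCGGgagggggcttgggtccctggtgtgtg
Psmb6: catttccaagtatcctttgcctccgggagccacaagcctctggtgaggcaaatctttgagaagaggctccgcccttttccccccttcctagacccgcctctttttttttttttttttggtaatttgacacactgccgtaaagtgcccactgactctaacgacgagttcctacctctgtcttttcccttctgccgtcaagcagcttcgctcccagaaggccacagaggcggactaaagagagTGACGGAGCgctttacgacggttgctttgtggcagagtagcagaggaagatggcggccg
Psme1: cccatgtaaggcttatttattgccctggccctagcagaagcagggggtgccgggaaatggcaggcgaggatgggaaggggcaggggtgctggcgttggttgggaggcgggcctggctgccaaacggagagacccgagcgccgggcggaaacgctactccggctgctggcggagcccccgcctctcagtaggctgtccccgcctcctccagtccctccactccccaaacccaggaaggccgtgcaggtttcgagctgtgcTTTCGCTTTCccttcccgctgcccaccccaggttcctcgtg
Psme2: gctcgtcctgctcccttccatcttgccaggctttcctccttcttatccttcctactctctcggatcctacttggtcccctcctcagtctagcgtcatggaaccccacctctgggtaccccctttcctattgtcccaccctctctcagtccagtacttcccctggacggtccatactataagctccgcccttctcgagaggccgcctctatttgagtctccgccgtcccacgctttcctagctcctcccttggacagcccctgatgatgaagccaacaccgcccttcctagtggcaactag
The Psma6 promoter shown held the ETS letters 3 times. The promoter at the first listed start of Psma6, not shown, held no ETS match and did hold CCAAT. The Psmb6 promoter held 1 antioxidant response element core, starting 9 bases before the start, and the Psme1 promoter held 1 interferon-stimulated response element, starting 9 bases after it. The Psme2 window held no match to any of them.

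None of the 46 genes passed the test between KO and WT. The members called at a limma adjusted p of 0.05, over all 14905 genes, were 0 higher and 0 lower, where 0.181% and 0.127% of all genes were called. At an unadjusted p of 0.05 limma put 8 of the 46 lower and 0 higher in KO, against 3.78% and 5.37% of all genes; limma-voom on the recovered reads put 6 lower. The 8 were Psma2, Psma6, Psmb6, Psmc1, Psme1, Psme2, Psme2b and Psme4. Ranges of KO and WT values did not overlap in 3 members, all lower in KO (Psma6, Psmb6 and Psme1), where 1.6% of all genes were separated in that direction and 1.55% in the other. Both shares were larger among genes of similar level: of the 2686 genes with a mean between 3000 and 25000 normalized counts, 234 were lower at an unadjusted p of 0.05 and 98 were separated on the low side, against 7 and 3 of the 34 members in that range.

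The differences were small and mostly on the low side. The median log2 difference, KO minus WT, was -0.14 over the 46 members, a ratio of 0.910, and 0.02 over all genes. It lay below 0 in 37 of 46 members (80.4%), against 47.6% of all genes. Of those 2686 genes 60.0% lay below 0, against 28 of the 34 members in that range (82.4%). For 33 of the 46 the 95% interval of the difference stayed within 0.5 on the log2 scale in both directions. In bulk RNA, fewer cells of a type and less RNA per cell cannot be told apart.

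Single libraries carried part of this shift. KO replicate 5 was the lowest of the 9 libraries for 17 of the 44 proteasome proteins, and WT replicate 3 was the highest for 15; both belong to the shallower libraries. Within the 6 deeper libraries (4 KO, 2 WT) the median over the 46 members was -0.05, with 30 below 0. Within the 3 shallower ones (1 KO, 2 WT) it was -0.25, with 42 below 0. With 1 library left out at a time, the count of 8 at an unadjusted p of 0.05 ran from 4 (without KO replicate 4, WT replicate 3 or WT replicate 4) to 11 (without WT replicate 1), and it was 5 without KO replicate 5. Among the 6 deeper libraries 2 members were lower and 2 higher by that measure. With depth class as a term in the fit, over all 9 libraries, the median was -0.13 and 6 members were lower at that p. KO replicate 5 was also the highest of the 9 libraries in the summed level of 10 dissociation response genes, at 260190 normalized counts (188295 to 260190 in KO, 151830 to 204136 in WT). The same held for 6 fibroblast markers, at 431536 (277611 to 431536 in KO, 193638 to 323435 in WT), and 10 endothelial markers, at 11664 (6253 to 11664 in KO, 3699 to 5387 in WT). In the sum of 10 macrophage markers KO replicate 5 was the lowest of the 9, at 1321593 (1321593 to 1435763 in KO, 1412586 to 1592369 in WT). Of the dissociation response genes 7 of 10 were higher and 0 lower in KO at an unadjusted limma p of 0.05, against 5.37% and 3.78% of all genes. By the same measure 2 of the 6 fibroblast markers were higher and 0 lower. In both lists 0 were called. The part of these genes in the shift was not tested.

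**Figure D1:**
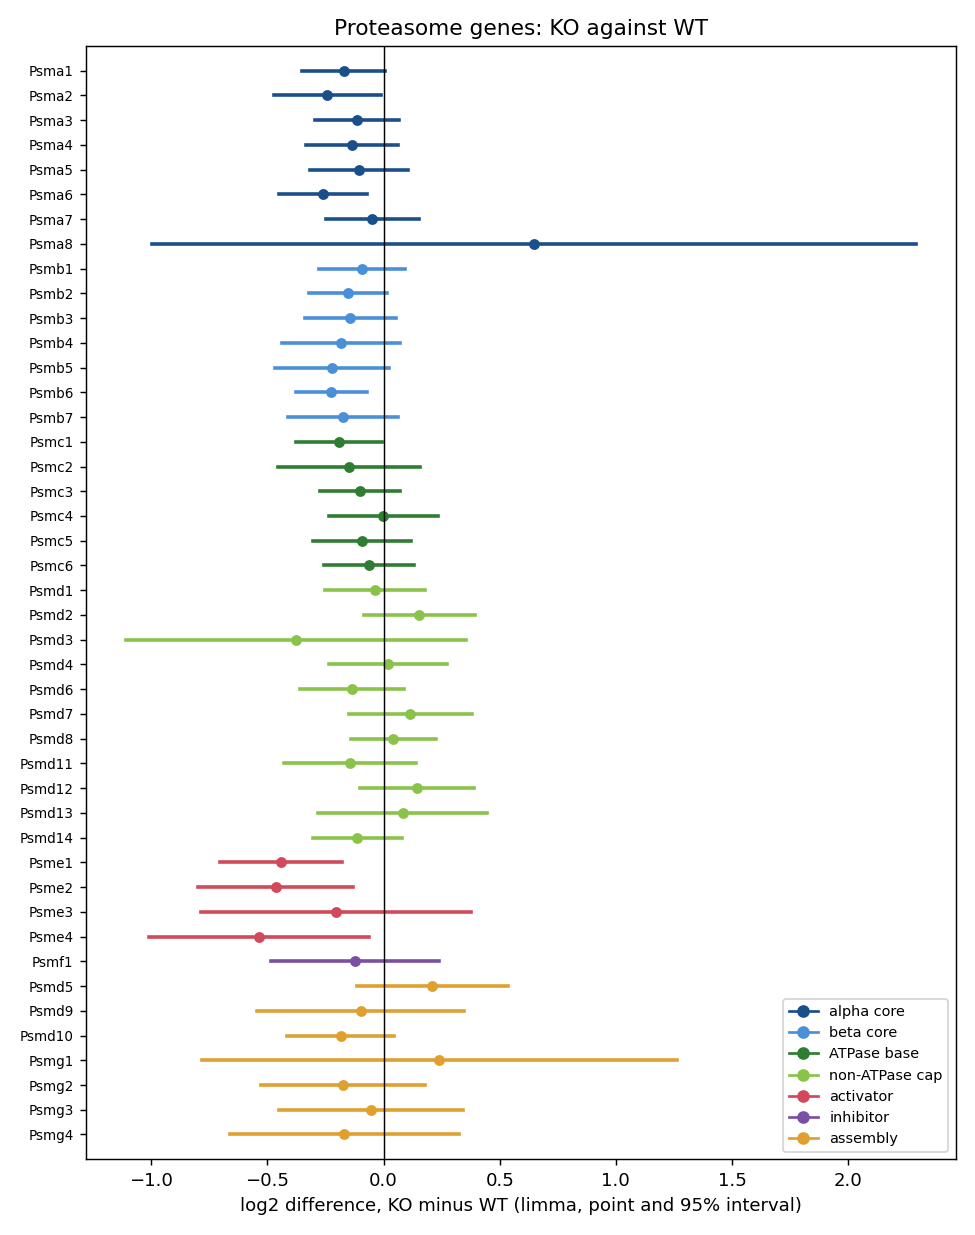
Log2 difference, KO minus WT, of each proteasome gene, with points for the limma estimate and bars for its 95% interval, grouped by role. Of the 44 genes 35 lie left of 0, and the widest interval belongs to Psma8, which is near the low end of expression.

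The core genes leaned lower in KO with one exception. Of the 15, 14 had a difference below 0 and the testis-type subunit Psma8 lay above. The medians were -0.13 over the 8 alpha genes and -0.18 over the 7 beta genes, and 14 of the 15 intervals stayed within 0.5 on the log2 scale. The alpha median was -0.07 without WT replicate 3 and -0.04 within the deeper 6 libraries, and the beta median was -0.10 in those 6.

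Psma6 encodes an alpha ring subunit, and its gene lies at chr12:55384222-55418454 on the plus strand (mm10). Its normalized counts were 12286, 13153, 11887, 12282 and 11366 in the KO libraries and 13240, 13548, 16776 and 15035 in the WT libraries. Every KO library lay below every WT library, by little between KO replicate 2 and WT replicate 1, and WT replicate 3 was the highest. The log2 difference was -0.26 (SE 0.09, limma adjusted p = 0.312). In the 6 deeper libraries the difference was -0.11.

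Psma2 encodes another alpha subunit. It was at 11225, 10948, 10038, 10453 and 9624 normalized counts in KO libraries and at 11545, 10153.5, 13286 and 14984 in WT libraries. WT replicate 2 fell among the KO values, and WT replicates 3 and 4 were the highest (log2 difference -0.24, SE 0.11, limma adjusted p = 0.513). Without WT replicate 4 the difference was -0.15, and in the 6 deeper libraries it was -0.02. Psma3, the alpha gene with the highest normalized count, had 22006, 18263, 19132, 19152 and 19628 in KO libraries and 19576, 20739, 24616 and 20263 in WT libraries. The groups overlapped (log2 difference -0.11, limma adjusted p = 0.738; -0.04 without WT replicate 3). The differences of Psma1, Psma4, Psma5 and Psma7 lay between -0.17 and -0.05.

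Among the beta genes, Psmb6 (chr11:70525367-70527858, plus strand), whose product cuts after acidic residues, separated the groups. It had 19599.9, 20829, 19233, 21165 and 18513 normalized counts in KO libraries and 22735, 23438, 22733 and 23871 in WT libraries. The WT values were close together and all above the highest KO value, with a log2 difference of -0.22 (SE 0.07, limma adjusted p = 0.263). Of the 3 separated genes it differed least between depth classes: the difference was -0.19 in the 6 deeper libraries and -0.33 in the 3 shallower ones.

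The other catalytic subunits overlapped between groups. Psmb5, whose product cuts after hydrophobic residues and is the main target of bortezomib, had 4926, 5160.3, 4293, 4738 and 3865 in KO libraries and 5075, 5946, 5384 and 4968 in WT libraries (log2 difference -0.22, SE 0.12, limma adjusted p = 0.594). KO replicate 2 lay inside the WT range, the other 4 KO libraries lay below it, and KO replicate 5 was lowest. Psmb7, whose product cuts after basic residues, had 6182, 6911, 7179.8, 6968 and 5389.5 in KO libraries and 6661, 8023, 7953 and 6812 in WT libraries (log2 difference -0.18, SE 0.11, limma adjusted p = 0.675). Again KO replicate 5 was lowest (the difference was -0.11 without it), and 3 KO libraries lay above the 2 lower WT libraries. Psmb2, a structural beta subunit, had 15488, 13441.5, 13522, 14639.8 and 13689 in KO libraries and 14781, 16017, 15548.5 and 16535 in WT libraries (log2 difference -0.15, SE 0.08, limma adjusted p = 0.588). Only KO replicate 1 overlapped with the WT range. The other structural beta genes, Psmb1, Psmb3 and Psmb4, had differences of -0.09, -0.14 and -0.18.

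Psma8, which replaces Psma7 in the proteasomes of male germ cells, was far below the other core genes. It had 258, 228, 173, 208 and 153 normalized counts in KO libraries and 288, 247, 235 and 15 in WT libraries. WT replicate 4 stood far below the rest, and the log2 difference was 0.65 (SE 0.77) with it and -0.35 without it. Psma8 came to 0.082% to 1.52% of Psma7 by normalized count in the 9 libraries. No source used here says how reads shared by these related genes were counted.

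The cap did not share a direction. Of its 17 genes 11 lay below 0 and 6 above. The ATPase genes had a median of -0.10, with 6 of 6 below 0, and the non-ATPase genes had a median of 0.02, with 6 of 11 above 0; without WT replicate 2 the non-ATPase median was -0.09. No cap gene had ranges that did not overlap.

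Psmc1, one of the ATPase ring genes that unfold substrates, had 12077, 12951, 10756, 10647 and 11916 normalized counts in KO libraries and 12566, 12614, 14057 and 14049.9 in WT libraries. KO replicate 2 lay inside the WT range and the other 4 KO libraries below it (log2 difference -0.19, SE 0.09, limma adjusted p = 0.528). Psmc3, another ring ATPase, had 11493, 11526, 11099.9, 10873 and 9814 in KO libraries and 11908, 11829.6, 11424 and 11840.1 in WT libraries. KO replicates 1 and 2 lay just above WT replicate 3, and KO replicate 5 was lowest (log2 difference -0.10, SE 0.08, limma adjusted p = 0.750; -0.06 without it). Psmc2, Psmc4, Psmc5 and Psmc6 had differences between -0.15 and -0.0005.

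Psmd2, a large scaffold subunit that binds ubiquitin-like domains, was the cap gene with the highest positive difference. It had 10455, 9769.5, 10984, 10522 and 9106 normalized counts in KO libraries and 7917, 7854, 10731 and 10350.5 in WT libraries. The WT libraries split, with replicates 1 and 2 below every KO library and replicates 3 and 4 within the KO range (log2 difference 0.15, SE 0.11, limma adjusted p = 0.724). The difference was 0.09 without WT replicate 1, 0.08 without WT replicate 2, 0.23 without WT replicate 3 and 0.40 within the deeper 6 libraries (limma adjusted p = 0.232). Psmd14, which encodes the metalloprotease that removes ubiquitin chains from substrates, had 10690.3, 11774, 10054, 9976 and 9469 in KO libraries and 11648, 10217, 11411.5 and 11622 in WT libraries. The groups overlapped through KO replicate 2 and WT replicate 2 (log2 difference -0.11, SE 0.09, limma adjusted p = 0.750). Psmd6, a lid subunit, had 6668, 6269, 5180.3, 6203 and 5645 in KO libraries and 6639.85, 6173, 7278 and 6219 in WT libraries, and the groups overlapped (log2 difference -0.14, SE 0.10, limma adjusted p = 0.741). Its difference was -0.09 without KO replicate 3 and likewise without WT replicate 3.

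A few cap genes were picked out after their values were seen. The lid gene Psmd12 had 7007, 6367, 6768, 6826 and 5149 normalized counts in KO libraries and 5103, 5687, 6485 and 5939 in WT libraries (log2 difference 0.14, limma adjusted p = 0.755). Its difference was 0.08 without WT replicate 1, 0.22 without KO replicate 5 and 0.32 in the 6 deeper libraries. The lid gene Psmd13 had 5125, 5200.1, 4719, 4529 and 5312 in KO libraries and 6189, 3063, 4387 and 5825 in WT libraries. WT replicate 2 was its lowest value by far, and its difference of 0.08 was -0.12 without that library and 0.22 without WT replicate 1. Psmd3, another lid gene, was low for the cap, at 634, 525, 292, 608 and 759 in KO libraries and 478, 781, 1115 and 572 in WT libraries (log2 difference -0.38, SE 0.34, limma adjusted p = 0.790). Without KO replicate 3 the difference was -0.16, and without WT replicate 3 it was -0.15. The other 5 non-ATPase genes, Psmd1, Psmd4, Psmd7, Psmd8 and Psmd11, lay between -0.15 and 0.11.

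Summed over genes, both core and cap overlapped between the groups. The core sum was 179287 ± 9592 normalized counts in KO libraries and 199494 ± 11580 in WT libraries, and the cap sum 132905 ± 7713 in KO libraries and 136903 ± 6749 in WT libraries, so both means were lower in KO. As a share of the library sum, which was itself larger in WT libraries, the core genes took 0.271% ± 0.012 of the normalized counts in KO libraries (SD, n = 5) and 0.286% ± 0.015 in WT libraries (SD, n = 4), and the cap genes 0.201% ± 0.010 in KO libraries and 0.196% ± 0.009 in WT libraries. All 44 proteasome proteins together took 0.536% ± 0.022 in KO libraries and 0.560% ± 0.038 in WT libraries. Each of these sums overlapped between the groups.

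The ratio of the cap sum to the core sum, computed after the class values were seen, did not overlap. It was 0.726, 0.765, 0.763, 0.730 and 0.724 in KO libraries and 0.711, 0.659, 0.669 and 0.709 in WT libraries. The gap between the groups was small, from 0.724 in KO replicate 5 to 0.711 in WT replicate 1. It is given as a description with no test, since it was chosen with the values known.

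**Figure D2:**
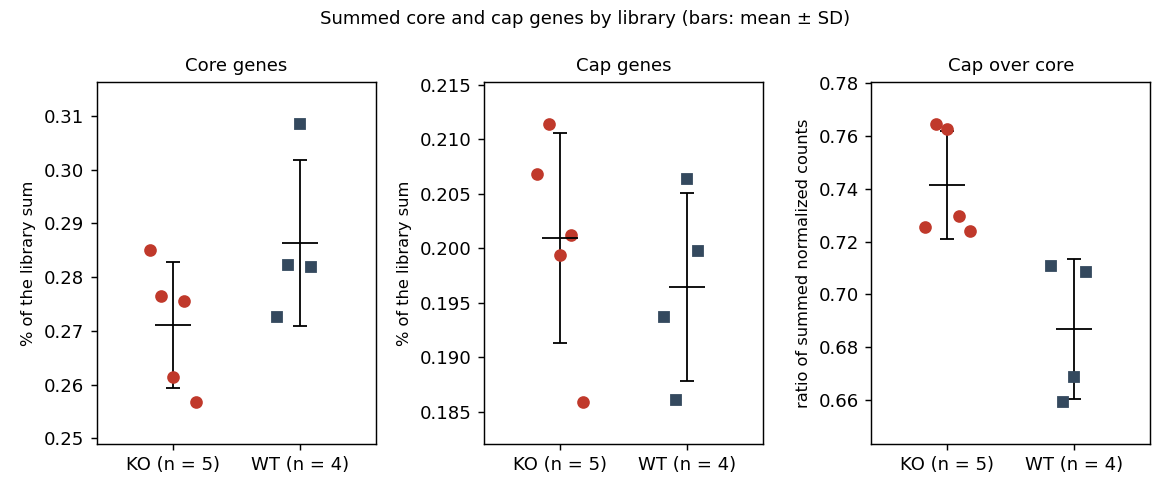
Summed core genes and summed cap genes as a percent of all normalized counts in a library, and the ratio of the cap sum to the core sum, for KO (circles, n = 5) and WT (squares, n = 4), with mean and SD as bars and axes that do not start at 0. The sums overlap between groups, while the ratios run from 0.724 to 0.765 in KO and from 0.659 to 0.711 in WT.

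The activators held the largest median difference among the role classes, -0.45, with 4 of 4 below 0. That median was -0.27 without WT replicate 3 and -0.18 within the deeper 6 libraries. Psme1 (chr14:55578123-55581529, plus strand), which encodes PA28 alpha, had 12280.4, 12709.9, 11597, 11789.8 and 11003 normalized counts in KO libraries and 13279.7, 14539, 22231 and 15646 in WT libraries. Every KO library was below every WT library, and WT replicate 3 stood far above the other 3. The log2 difference was -0.44 (SE 0.12, limma adjusted p = 0.185). It was -0.29 without WT replicate 3 (limma adjusted p = 0.382) and -0.20 in the 6 deeper libraries.

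Psme2 (chr14:55587441-55591113, minus strand), which encodes PA28 beta, lies close to Psme1 on the same chromosome. It had 12830, 14622.5, 13133, 11825.5 and 12356 normalized counts in KO libraries and 15096, 14180, 28166 and 16768 in WT libraries. KO replicate 2 overlapped with WT replicate 2, and WT replicate 3 was again the highest. The log2 difference was -0.46 (SE 0.16, limma adjusted p = 0.301), and it was -0.25 without WT replicate 3 (limma adjusted p = 0.500) and -0.16 in the 6 deeper libraries.

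Psme2b (chr11:48945354-48946190), the near-copy of Psme2, stood at 0.288 to 0.322 of the Psme2 normalized count in every library. Its log2 difference was -0.41 (SE 0.17, limma adjusted p = 0.473), and it was -0.19 without WT replicate 3 and -0.11 within the deeper 6 libraries. Reads of such copies may be split between them by the counting, which is not described in the sources used here, so the level of each is uncertain. Psme4, also at an unadjusted p under 0.05, had 1199, 2857, 1839, 1259.8 and 1678 normalized counts in KO libraries and 2549, 2165, 2668 and 2391 in WT libraries. KO replicate 2 was the highest of all 9, and the other 4 KO libraries were below every WT library (log2 difference -0.54, SE 0.22, limma adjusted p = 0.471). Psme3 had 780.4, 1063, 1788, 1909 and 1474 in KO libraries and 1099.6, 1349.6, 2122 and 1756 in WT libraries. It varied widely within both groups, which overlapped (log2 difference -0.20, SE 0.27, limma adjusted p = 0.847). The difference was -0.01 without KO replicate 1, -0.05 without WT replicate 3 and 0.09 within the deeper 6 libraries.

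The PA28 alpha-beta genes were set beside the inducible catalytic subunits, which replace Psmb5, Psmb6 and Psmb7 in the immunoproteasome. Psmb8 had 14937, 14279.6, 13599.7, 12938 and 14624.5 normalized counts in KO libraries and 15749, 17033, 29352 and 20484 in WT libraries (log2 difference -0.51, SE 0.14, limma adjusted p = 0.178). WT replicate 3 was the highest library for Psmb8, Psmb9 and Psmb10, as for Psme1 and Psme2. After removal of the group means, the Pearson correlation over the 9 libraries was 0.95 between Psme1 and Psmb9, and 0.80 over the 8 libraries without WT replicate 3. For Psme2 it was 0.92 with Psmb8, 0.90 with Psmb9 and 0.84 with Psmb10, and without WT replicate 3 it was 0.55, 0.51 and 0.20, so for Psme2 the relation rested largely on that library. Between Psme1 and the constitutive Psmb6 it was 0.08, and 0.67 without that library. With the other proteasome proteins, Psme2 apart, Psme1 ran from -0.56 (Psmg3) to 0.93 (Psma6) over the 9 libraries. High values were thus not limited to the inducible subunits. These values share libraries and scaling and are descriptions.

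The ratio of inducible to constitutive catalytic subunit followed the same library. Psmb8 over Psmb5 was 3.03, 2.77, 3.17, 2.73 and 3.78 in KO libraries and 3.10, 2.87, 5.45 and 4.12 in WT libraries. Psmb9 over Psmb6 averaged 0.162 ± 0.018 in KO libraries (SD, n = 5) and 0.214 ± 0.109 in WT libraries (SD, n = 4). Psmb10 over Psmb7 averaged 1.22 ± 0.19 in KO libraries and 1.51 ± 0.40 in WT libraries. All 3 ratios overlapped between groups and were highest in WT replicate 3.

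**Figure D3:**
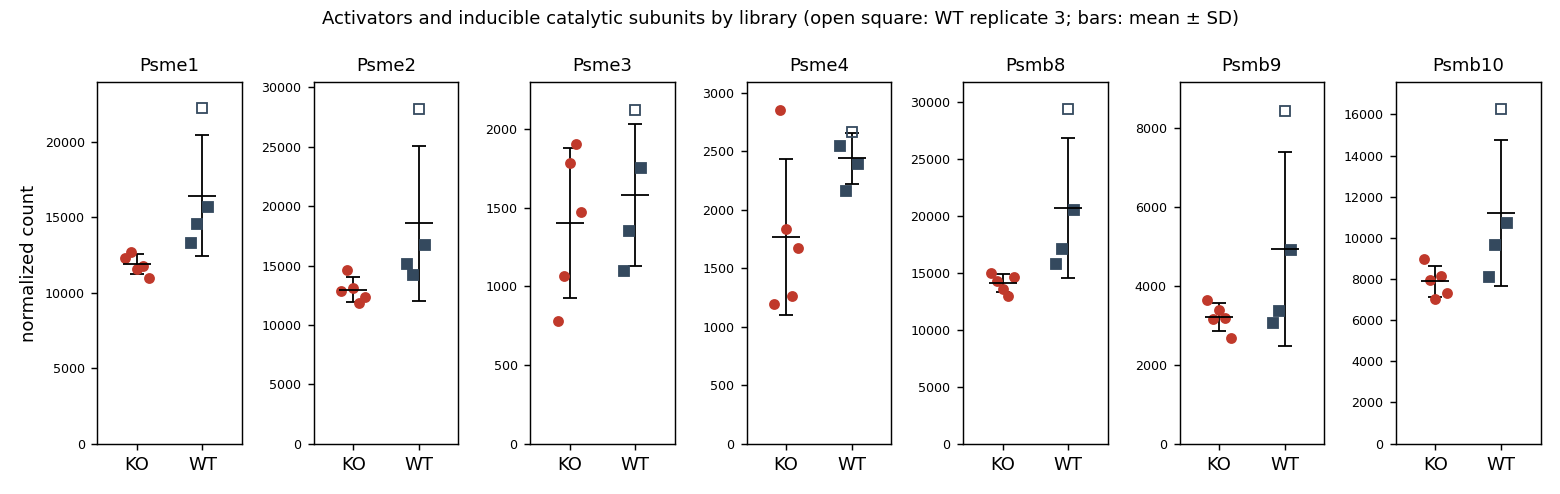
Normalized counts of the 4 activator genes and the 3 inducible catalytic subunits in each library, for KO (circles) and WT (squares, replicate 3 open), with mean and SD as bars. WT replicate 3 is the highest WT library in all 7 panels, at 22231 for Psme1 and 28166 for Psme2.

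Markers of other cell types also differed among these libraries. The summed level of 6 dendritic cell markers was highest in WT replicate 3, at 6376 normalized counts. It ran from 3742 to 5042 in KO and from 3340 to 6376 in WT. These 6 markers went both ways, with 3 above 0 and 3 below, and 0 were called. In limma 1 was higher and 1 lower in KO at an unadjusted p of 0.05, against 5.37% and 3.78% of all genes. Itgae was at the floor in all KO libraries. The sum of 8 mast cell markers ran from 1850 to 3492 in KO and from 6081 to 10799 in WT. Of the 8, 4 were lower at a limma adjusted p of 0.05, against 0.127% of all genes, and Fcer1a was at the floor in all KO libraries. The sum of 10 endothelial markers ran from 6253 to 11664 in KO and from 3699 to 5387 in WT, with 2 of the 10 called higher, against 0.181% of all genes. That of 8 mesothelial markers ran from 5629 to 18470 in KO and from 2255 to 7637 in WT, with 0 called. The sum of 10 macrophage markers ran from 1321593 to 1435763 in KO and from 1412586 to 1592369 in WT, with 0 called. At an unadjusted p of 0.05 limma put 5 of these 10 lower and 1 higher in KO, against 3.78% and 5.37% of all genes. Their median log2 difference was -0.12. The part of these cells in the proteasome values was not tested.

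The inhibitor and the assembly factors showed no common shift. Psmf1, which encodes the inhibitor PI31, had 3086, 2037, 2481, 2683 and 1903 normalized counts in KO libraries and 2099, 3027, 2771 and 2644 in WT libraries, with full overlap (log2 difference -0.12, SE 0.17, limma adjusted p = 0.852). Its difference ran from -0.23 to -0.04 with 1 library left out, without WT replicate 1 and without KO replicate 5. Of the 7 assembly factors 5 lay below 0, with a median of -0.10, which was -0.04 without WT replicate 1. Psmd10, which encodes gankyrin, a chaperone of the ATPase ring, had 3558, 3611, 3955, 3676 and 3265 in KO libraries and 4165, 4051, 4258 and 3929.9 in WT libraries. Only KO replicate 3 reached the WT range (log2 difference -0.18, SE 0.11, limma adjusted p = 0.643).

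Psmd5, another chaperone of the ATPase ring, had 2686, 2361, 3027, 2309.6 and 2214 in KO libraries and 2165, 2487, 1769 and 2304 in WT libraries (log2 difference 0.21, SE 0.15, limma adjusted p = 0.726). The groups overlapped, with WT replicate 3 lowest, and the difference was 0.11 without that library. Psmg1, a chaperone of the alpha ring, was the least abundant of them and the most variable, at 595, 474, 288, 250.4 and 350.1 in KO libraries and 187, 425, 729 and 169 in WT libraries. Its difference of 0.24 (SE 0.48) turned to -0.0089 without WT replicate 1 and to -0.06 without WT replicate 4, and was 0.64 without WT replicate 3. Psmd9, Psmg2, Psmg3 and Psmg4 had differences between -0.17 and -0.05. Psmc3ip, the unrelated symbol match, had means of 206 ± 48.1 in KO libraries and 242 ± 54.9 in WT libraries (log2 difference -0.23, limma adjusted p = 0.902).

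**Figure D4:**
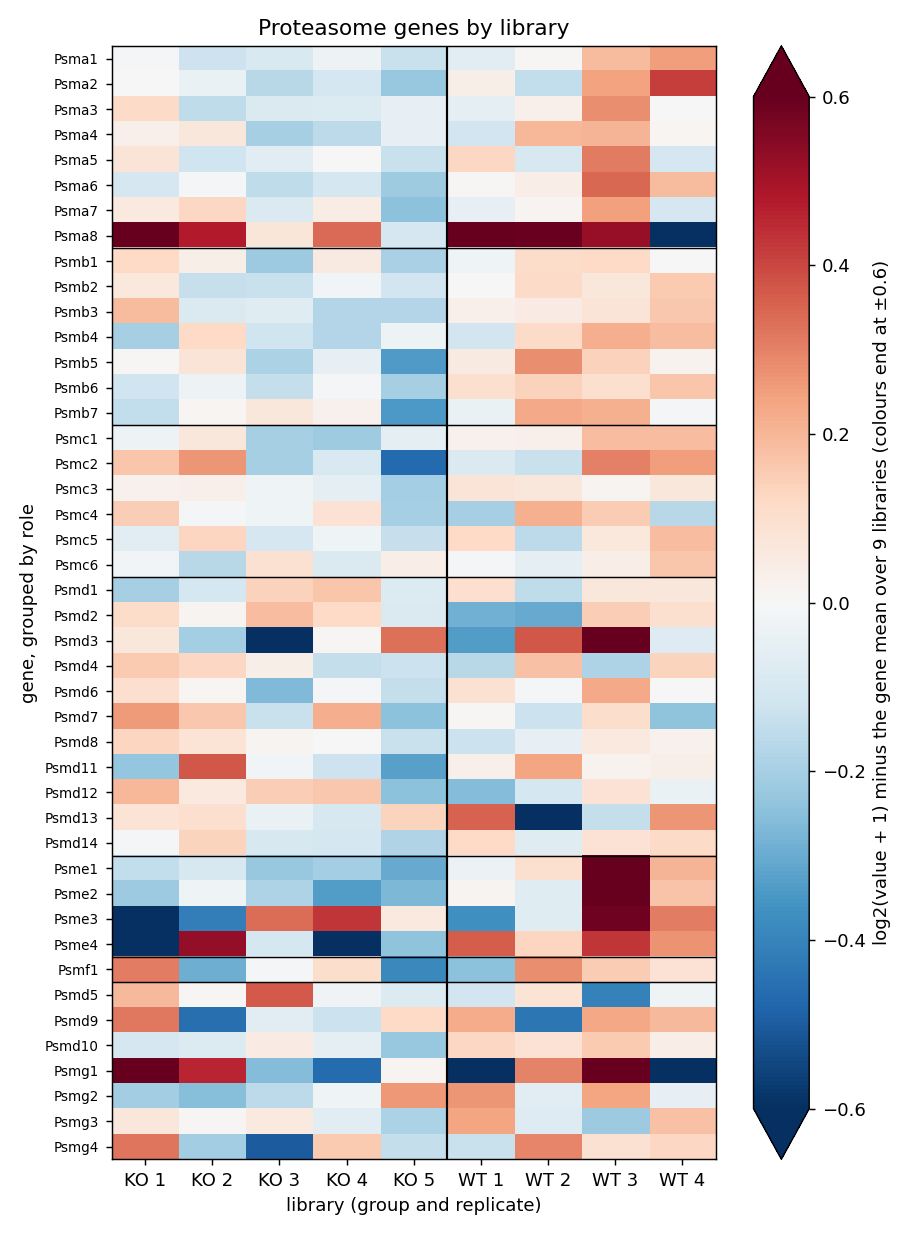
Colour map of the 44 proteasome genes (rows, grouped by role) in the 9 libraries (columns, KO left of WT), as log2(value + 1) minus the gene's mean over libraries, with colours ending at 0.6 in each direction. KO replicate 5 is the lowest library for 17 genes and WT replicate 3 the highest for 15, and Psma8, Psme3, Psme4 and Psmg1 vary more than their neighbours.

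Divided by the length of each gene's principal transcript, the levels spanned a wide range. Among all members the highest was Psmb6, at 24897 ± 1390 normalized counts per kb in KO libraries and 29065 ± 702 in WT libraries, and the next was Psma7, at 21247 ± 2113 per kb in KO libraries and 21976 ± 2408 in WT libraries. The core genes other than Psma8 had a median of 11221 per kb in KO and 12227 in WT, the cap genes 4148 in KO and 4031 in WT, and the assembly factors 1320 per kb in KO and 1378 in WT. The median level of these core genes exceeded that of the cap genes in both groups, although single genes overlapped.

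The catalytic subunits were unequal per kb. Psmb6 stood above Psmb7, at 5626 ± 637 in KO libraries and 6347 ± 625 in WT libraries, and Psmb5, at 5113 ± 576 in KO libraries and 5944 ± 488 in WT libraries. Psmb5 and Psmb7, neighbours in the KO order, differed by less than 1 SD in both groups. At the low end were Psma8, with 120 per kb in KO and 116 in WT, Psmd3, with 262 in KO and 343 in WT, and Psme4, with 272 in KO and 376 in WT.

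Per-length values depend on the transcript model. With the union of all exons as the length, Psmb1 was at 5509 per kb in KO and 5852 in WT, in place of 10740 in KO and 11408 in WT with the principal transcript. For Psma2 and Psma3 the principal transcript is long (2911 and 2846 bases), which lowers their values per kb against those of other alpha genes. The order of genes was nearly the same in both groups, with Psmb6 at the top and Psma7 next in each by principal transcript. By exon union Psma7 (16457 per kb in KO, 17022 in WT) came below Psmb2 (16480 per kb in KO, 18301 in WT) in both groups, and below Psme2 (19009) in WT. The activators Psme2 and Psme1 stood at places 5 and 10 in KO and at places 3 and 6 in WT.

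**Figure D5:**
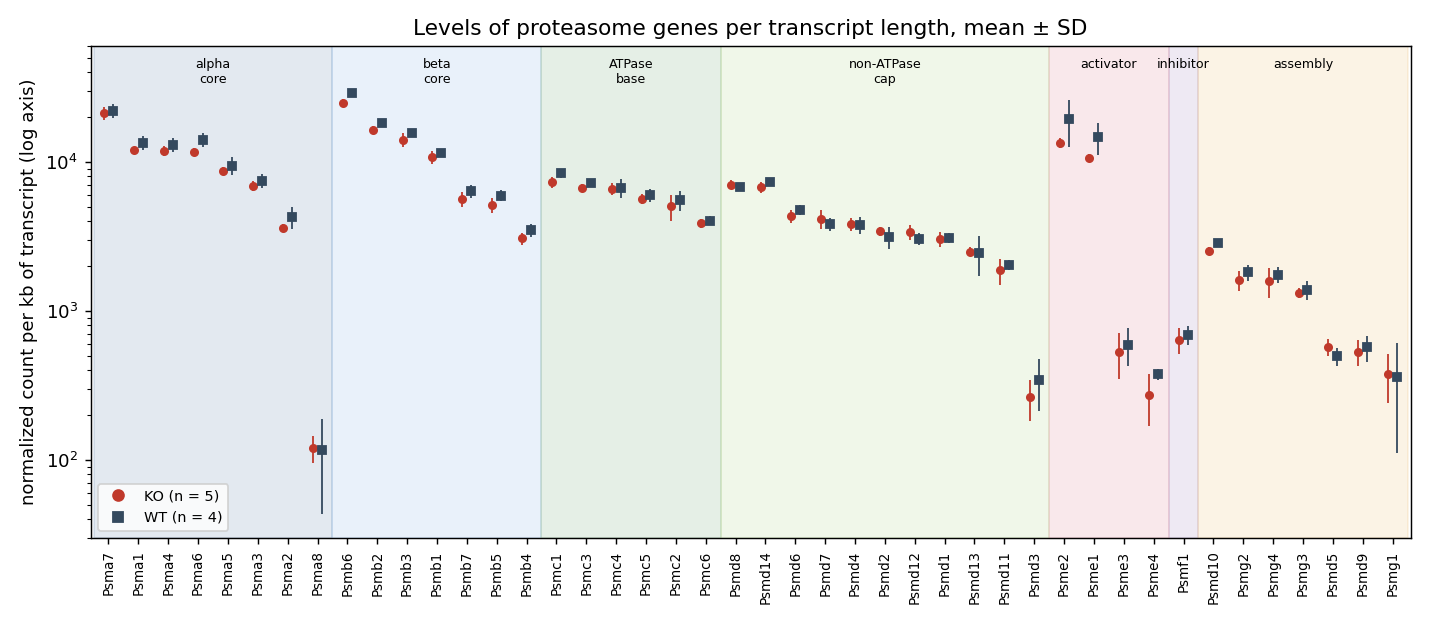
Normalized counts per kb of principal transcript for each proteasome gene on a log axis, with circles for the KO mean and squares for the WT mean and bars for the SD (n = 5 and 4). Psmb6 is highest, at 24897 in KO and 29065 in WT, and Psma8 lowest, at 120 in KO and 116 in WT.

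Proteasome genes of higher level varied a little less between libraries of a group than all genes of similar level. Over the 34 members with a mean between 3000 and 25000 the median coefficient of variation was 8.08% among KO libraries and 9.89% among WT libraries. Over all 2686 genes in that range it was 11.7% in KO and 11.7% in WT. The activators had medians of 21.1% in KO and 26.4% in WT, and the assembly factors 15.3% in KO and 14.0% in WT. Counting error alone would give a median of 1.09% over the 44 proteasome proteins, far below these values. Separate samples differ by more than counting, so the gap names no cause.

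Members also varied together. After removal of the group means, the median Pearson correlation over the 9 libraries was 0.20 across the 946 pairs of proteasome proteins. It was 0.45 among alpha genes, 0.29 among beta genes, 0.28 between core and cap genes, 0.07 among the ATPase genes and -0.10 among the assembly factors. Members with a mean between 3000 and 25000 had a median of 0.30, against 0.01 over all gene pairs of that range. These correlations are across few libraries that share a scaling and are given as descriptions.

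The promoter table held 39 promoters for 36 of the 44 proteasome proteins. The motif CCGGAAG, read on both strands, was in 15 of the 39 (38.5%), against 15.4% of the promoters of all genes in the deposited table and 8.86% of all 32851 promoters. By role it was in 9 of 14 cap genes, 1 of 11 core genes and 4 of 11 activator, inhibitor or assembly genes. The cap genes holding it were Psmc1, Psmc2, Psmc6, Psmd2, Psmd4, Psmd6, Psmd11, Psmd12 and Psmd13. The core gene was Psma6, through the second of its listed starts only. The split of these letters between cap and core genes is a count, chosen after it was seen, and says nothing of binding.

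Other motifs were spread otherwise. CCAAT was in 12 of 39 promoters (30.8%), against 37.3% of the promoters of the deposited table's genes, and it was in 6 of 11 core genes and 4 of 14 cap genes. TGACNNNGC was in 6 promoters (15.4%, against 14.2%), among them Psmb5, starting 47 bases before the start, and Psmb6. TGACGTCA (the cyclic AMP response element) was in 0 of 39, against 2.87%. A pair of interferon motifs was added after the values were seen. TTCNNNGAA (the gamma-activated sequence) was in 2 promoters (5.13%, against 7.07%). The interferon-stimulated response element was in 5 (12.8%, against 3.15%): Psmb3, Psmd4, Psmd9, Psme1 and Psmg4. Of these, only Psme1 had an unadjusted limma p under 0.05.

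Genes that work with the proteasome were described from lists of its pathway, 40 measured genes in all. The 40 include Psmb8, Psmb9 and Psmb10. In limma 0 were called, against 0.181% of all genes higher and 0.127% lower. At an unadjusted p of 0.05, 2 were higher and 7 lower, against 5.37% and 3.78% of all genes, with a median of -0.06. Of the 7, 3 were Psmb8, Psmb9 and Psmb10. Ranges did not overlap in 4, all lower in KO, against 1.6% of all genes: Psmb8, Pomp, Uchl5 and Nfe2l2. Pomp, the chaperone that matures the core and is not a Psm gene by name, had 15966.5, 15683, 16136.5, 16745 and 16072 normalized counts in KO libraries and 18382, 17806, 22023 and 20945 in WT libraries. Every KO library was below every WT library (log2 difference -0.29, SE 0.08, limma adjusted p = 0.182). Uchl5, a deubiquitinase bound to the cap, had 2209.6, 2298, 2369.99, 1999 and 1825 in KO libraries and 2678, 2776, 3117 and 2754 in WT libraries. Its ranges did not overlap either (log2 difference -0.41, SE 0.14, limma adjusted p = 0.298).

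The transcription factor that restores proteasome genes when proteasomes fail, Nfe2l1, was at 2281 ± 92.6 normalized counts in KO libraries and 2303 ± 458 in WT libraries (log2 difference 0.01, limma adjusted p = 0.990). Its relative Nfe2l2, which drives antioxidant genes, had 51269, 47363, 47756, 46158 and 48632 in KO libraries and 58423, 55606, 57512 and 55093 in WT libraries. Its ranges did not overlap (log2 difference -0.23, SE 0.06, limma adjusted p = 0.155). Among the shuttle factors that carry tagged proteins to the cap, Ubqln1 had the smallest p, with 2775, 3023, 2095, 1898 and 2539 in KO libraries and 1491, 1679, 1717 and 2114 in WT libraries (log2 difference 0.48, SE 0.17, limma adjusted p = 0.345). The groups overlapped through WT replicate 4. Among the ubiquitin genes it was Rps27a, with 37906, 41957.5, 37019, 39559 and 38646 in KO libraries and 43275, 46548, 42401 and 40292 in WT libraries (log2 difference -0.14, limma adjusted p = 0.550). KO replicate 2 lay inside its WT range. The p97 unfoldase gene Vcp and the cap-bound Adrm1 differed by -0.02 and 0.04, which was less than their standard errors of 0.11 and 0.14.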

How the data were processed

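The authors deposited normalized read counts per gene for 5 KO and 4 WT libraries, a signal on a linear scale: read counts divided by 1 factor per library, with values under 1 set to 1. This was read from the values, of which 99.5% to 99.7% above 1 in each library were whole multiples of 1 step (tolerance 0.1 of a step). Per the labels' protocols, mRNA was selected with oligo-dT and made into strand-specific libraries. Tools named in the submitters' processing notes are CASAVA 1.8.2, HISAT, Partek and DESeq2, with the build mm10 and no roles. No source used here gives the annotation, the counting of shared reads or the gene filter. The lowest mean over libraries was 5.09.

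Differences came from limma 3.58.1 (R 4.3.3) on log2(value + 1) with a mean-variance trend, all 14905 genes, no covariate and Benjamini-Hochberg adjustment at 0.05; folds of low genes are understated on that scale. The floor keeps a count model from being the main test. Requiring 4 libraries at 1 or above removed 0 genes. Values were summarised in Python 3.11.15. Figures were drawn with matplotlib 3.10.9. The code was tested on simulated data. Recovered reads gave the counting error, which is far below the spread between libraries.

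The members and lists were chosen with earlier results of these data known. Values in every library are given, per role class, for the 2 members with the smallest p and the one of highest mean, for the 3 catalytic subunits and for members whose ranges do not overlap; in pathway lists, for the gene with the smallest p. Outside that rule, Psme4, Psme3, Psmd3, Psmd13, Psmd12, Psma8, Psmg1, Psme2b, Psmb9, Psmb10, Nfe2l1, Vcp and Adrm1 were picked after values were seen. Positions and transcript lengths came from GENCODE M21 (GRCm38), where all 46 members matched, and promoters from RefSeq, where 38 matched. A comparison of the protein sequences was planned and not run here. The alternatives were other pseudocounts, filters, scalings, weights and moderation, a replicate block, each library left out, depth class as a covariate, only the 6 deeper libraries, and limma-voom. The other marker lists (neutrophil, T and NK cell, B cell and adipocyte genes) had 0 members called. In limma 1, 1, 0 and 0 were higher and 0, 0, 0 and 2 lower in KO at an unadjusted p of 0.05, against 5.37% and 3.78% of all genes. The adipocyte marker Plin1 was at the floor in all WT libraries.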

Additional observations from a re-analysis of the deposited data

Results flagged for a closer look

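In 6 of the 88 groups of values tested (44 proteasome genes in KO and in WT), 1 library stood apart from its group by Dixon's criterion at 95%. Chance gives about 1 in 20, or 4.4 of 88. Psmb3, a core beta gene, was at 12838 normalized counts in KO replicate 1, against 9952 to 10715.5 in the other KO libraries. Psmc3, an ATPase of the cap, was at 11424 in WT replicate 3, against 11829.6 to 11908 in the other WT libraries.

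The other 4 were all WT replicate 2, and all cap or assembly genes. Psmd1, a cap scaffold, was at 8537 there, against 9929 to 10164.5 in the other WT libraries. Psmd14 was at 10217, against 11411.5 to 11648. Psmd9, an assembly factor, was at 1034, against 1595 to 1641. Psmd11, a lid subunit, was the one that was higher, at 6474 against 5565 to 5625. No cause of these values was tested.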

How the results depend on the processing

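Over 21 alternatives to 39 results, the members called were 0 higher and 0 lower in each. Of 819 recomputed values 788 counted as kept. Differences of genes had to hold their direction and side of the threshold, medians to stay within the spread, and counts to stay similar in size. For a single gene this does not measure size: Psma2 at -0.02 in the 6 deeper libraries, against -0.24, counted as kept. The 33 genes called over the table with depth class as a term, against 46, also counted as kept. The alternative without a filter repeats the main fit, since the filter removed 0 genes. The smallest adjusted p of any member in limma was 0.151, for Psme1 with array weights. Over the whole table, 46 genes were called; the count was 0 with the replicate block and 0 in the 6 deeper libraries, and 5 to 38 with a library left out. Same-numbered libraries correlated between -0.014 and 0.045 after group means were removed, and 3 of 8 correlated best with their own number. The sources used here do not say whether equal numbers stand for shared processing, which was not tested. In the 6 deeper libraries the median differences were -0.053 over the members, -0.0038 over the ATPase genes and -0.18 over the activators, and the difference was 0.013 for Psmf1, 0.091 for Psme3 and -0.32 for Psma8. With a library left out the median over the non-ATPase cap genes ran from -0.094 (without WT replicate 2) to 0.056. Psmd13 ran from -0.12 (without WT replicate 2) to 0.22, Psma8 from -0.35 (without WT replicate 4) to 1.04, and Psmg1 from -0.058 (without WT replicate 4; -0.0089 without WT replicate 1) to 0.64. Nucb2 was -1.58 with the replicate block (adjusted p = 0.0515) and -1.61 in the deeper libraries (adjusted p = 0.116). Fewer libraries enter both; the cause of the other changes was not tested. Counting error, taken from the mean reads over libraries, was at most 6.8%, for Psma8, which had 11 reads in its lowest library. This error covers counting only and says nothing of other effects of depth.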
